A study of Mus musculus with 6 samples.

Results

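The genes followed here are the nuclear genes of respiratory complexes II to V, read in 3T3 cells given baicalin or its solvent. A row of the count table was taken where its symbol is Sdha, Sdhb, Sdhc, Sdhd, Cyc1 or Cycs, or begins with Sdhaf, Uqcr, Cox and a digit, or Atp5. The 7 names that carry a pseudogene suffix were left out, and they held 33 reads in all 6 libraries together. That gave 65 of 54532 rows: 8 for complex II, 9 for complex III, 1 for cytochrome c, 29 for complex IV and 18 for complex V. The 3T3 line is of mouse fibroblast origin, and the labels give the cells as adipocytes of WT genotype. The groups were 3 libraries from cells given DMSO and 3 from cells given 200 µM baicalin, a flavone glucuronide of Scutellaria roots. The length of treatment, the way the cells were differentiated and whether the libraries of a group came from separate cultures are given by no source used here. P-values therefore rest on the spread among these 6 samples, and that spread may be technical.

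The respiratory chain sits in the inner mitochondrial membrane. Complex II, succinate dehydrogenase, passes electrons from succinate to ubiquinone, complex III passes them from ubiquinol to cytochrome c, and complex IV, cytochrome c oxidase, passes them to oxygen. Complexes III and IV pump protons, and complex V, the ATP synthase, lets them flow back and makes ATP. Complex II is built of nuclear-encoded proteins alone, whereas complexes III, IV and V also hold subunits made from mitochondrial DNA. In fat cells the chain disposes of the electrons from fatty acid oxidation and feeds the ATP used for lipid storage.

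Library totals ran from 16730594 to 18326874 reads, so that 3 counts, the limit which an absent gene allows, stand for at most 0.179 CPM (counting error only). Levels are given in CPM, that is read counts put on a common library size with TMM factors, unless FPKM is named. Differences are log2 fold changes, baicalin minus DMSO, from edgeR's quasi-likelihood test over 13728 genes, and a gene is called at a Benjamini-Hochberg adjusted p under 0.05. Of these genes 67.7% were called, 33.6% as higher and 34.1% as lower, and 30.0% were called with a change past 1.5-fold. Baicalin libraries exceeded all DMSO libraries for 35.1% of the genes and lay under all of them for 35.1%.

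Most genes of complexes II to V were somewhat higher in baicalin, by small factors. Of the 65, 5 had no read, 10 did not pass the filter on low counts and 55 were tested (the 10 include the 5). Of the 55, 34 rose (61.8%, beside 33.6% of all tested genes), 5 fell (9.09%, beside 34.1%) and 16 were not called. Their median log2 fold change was 0.20, and that of all tested genes was 0.00. The changes were small: 9 of the 55 (16.4%) were called past 1.5-fold, against 30.0% of all tested genes. These were the rises of Cox6a2, Cycs, Uqcrq, Sdhaf1, Atp5g1, Cox18, Cox5a and Cox11 and the fall of Cox17. The baicalin libraries lay above every DMSO library for 37 of the 55 (67.3%) and below every one for 6 (10.9%).

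The surplus of rises was smaller under other scalings of the libraries. Once trends with exon length and GC content had been removed from each library, 23 of the 55 were higher and 12 were lower (median 0.07), while 64.5% of 13714 genes were called, 33.1% as higher and 31.4% as lower. Of the 34 rises 20 were still called as rises, and 1, Uqcr10, was called as lower. The other 13 were no longer called: Sdhb, Sdhc, Sdhd, Uqcrc1, Cox6b1, Cox8a, Cox10, Cox11, Cox14, Atp5a1, Atp5c1, Atp5g3 and Atp5j. Scaled by library size alone, which shifted the median of all genes by -0.13, 24 members were higher and 13 were lower (median 0.08), while 67.6% of all genes were called, 25.3% as higher and 42.3% as lower. There 24 of the 34 rises were still called, and Sdhc, Sdhd, Uqcr10, Cox6b1, Cox8a, Cox14, Atp5c1, Atp5g3, Atp5f1 and Atp5j were not. Of the 16 genes without a call, 8 were called as lower by library size alone: Sdha, Sdhaf3, Uqcrh, Cox6c, Cox7a2, Cox7c, Cox15 and Atp5mpl. Rises made up 87.2% of the members' calls, 65.7% after removal of the trends and 64.9% by library size alone, against 49.7%, 51.3% and 37.4% of the calls over all genes. All 5 falls (Sdhaf4, Cox17, Cox7b, Atp5s and Atp5j2) were called as falls under both of these scalings. The 55 genes had a median exon length of 1972 bp, against 4126 bp for all tested genes, and a median GC content of 49.8%, against 49.4%. Their median level in DMSO was 70.0 CPM, against 22.5 CPM, and smaller changes can be called in more abundant genes. Over 13714 genes measured in the same libraries, the log2 fold change had a Pearson r of -0.09 (Spearman rho -0.19) with log2 exon length and 0.27 (0.31) with GC content, given as a description.

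**Figure D1:**
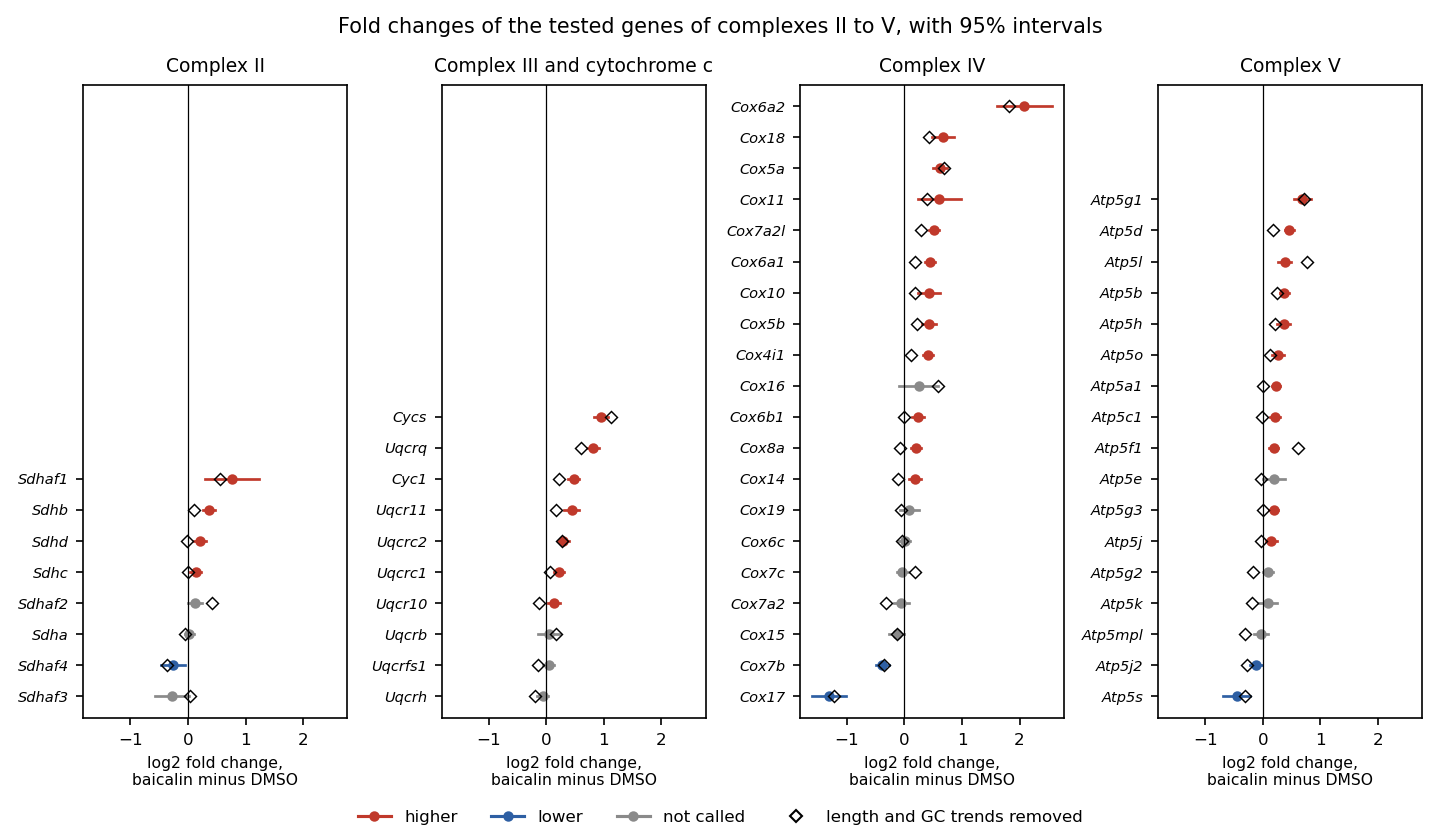
Log2 fold change (baicalin minus DMSO) of the 55 tested genes by complex, one gene a line; circles with bars are estimates with 95% intervals, coloured by call, and open diamonds are the values with length and GC trends removed. Most circles lie right of 0 within 1 log2 unit, Cox6a2 stands far right and Cox17 far left, and 9 of the 34 rises have a diamond left of 0, among them Sdhc, Sdhd, Uqcr10, Cox8a and Atp5a1.

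The label of adipocytes was set beside markers, which differed with treatment. Summed over 10 fat cell markers the level was 1804 to 1979 CPM in DMSO and 803 to 817 CPM in baicalin. Of 7 tested markers 6 fell, beside 34.1% of all tested genes, and none was called as higher. The remaining marker was not called, at a log2 fold change of 0.68 with every baicalin library above every DMSO library. Lpl made up most of the sum, at 1443 ± 79.6 and 491 ± 8.06 CPM (SD, n = 3 each), while Adipoq, adiponectin, stood at 1.66 ± 0.679 and 0.136 ± 0.0676 CPM. Lep, Slc2a4 and Cfd were under 0.3 CPM on average in both groups, and Lep and Cfd had no read in baicalin. Fibroblast and preadipocyte markers summed to 7961 to 8511 CPM in DMSO and 6764 to 7024 CPM in baicalin. Among these 7 markers 3 rose and 4 fell, beside 33.6% and 34.1% of all tested genes. The 6 brown fat markers summed to at most 0.822 CPM. The 5 macrophage markers summed to 1.79 to 2.36 CPM in DMSO and 2.99 to 4.89 CPM in baicalin. Of the 2 macrophage markers tested Cd68 rose (log2 fold change 1.08) and Csf1r was not called, while Ptprc, Adgre1 and Itgam were under 0.1 CPM on average in both groups. The part of these differences in the changes of the respiratory genes was not tested, and in bulk samples fewer cells of a type and less RNA per cell cannot be told apart.

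The DNA upstream of the start of some of these genes is shown here because nuclear respiratory genes are known for shared promoter motifs, those of NRF1 and of ETS factors such as GABP. RefSeq's promoter table (GRCm38.p6) had an entry for 42 of the 55 tested genes, and 250 bases upstream of each start were searched on both strands. The sequences run 5′ to 3′ toward the gene, capitals mark motif matches, and stretches that GENCODE annotates as exons of protein-coding transcripts are left out. Cycs (chr6:50566570-50566819, minus strand) had the largest rise with an entry and no match. Cox6a1 (chr5:115348982-115349208, minus strand) rose and had a pair of NRF1 matches and, in the stretch not printed, an ETS match 16 bases upstream of the start, Atp5l (chr9:44920743-44920992, minus strand) rose and had an ETS match and an E-box, Atp5e (chr2:174464106-174464351, minus strand) had an ETS match and was not called, and Cox7b (chrX:106015450-106015699, plus strand) fell and had no match.
Cycs: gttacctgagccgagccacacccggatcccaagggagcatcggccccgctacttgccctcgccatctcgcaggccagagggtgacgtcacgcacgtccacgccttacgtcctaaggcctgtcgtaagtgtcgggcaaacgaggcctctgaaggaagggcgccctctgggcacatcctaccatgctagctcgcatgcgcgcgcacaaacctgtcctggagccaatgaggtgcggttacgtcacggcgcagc
Cox6a1: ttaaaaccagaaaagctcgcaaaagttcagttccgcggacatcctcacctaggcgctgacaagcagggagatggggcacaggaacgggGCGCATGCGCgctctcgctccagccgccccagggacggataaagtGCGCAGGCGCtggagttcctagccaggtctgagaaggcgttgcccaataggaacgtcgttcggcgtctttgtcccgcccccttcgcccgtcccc
Atp5l: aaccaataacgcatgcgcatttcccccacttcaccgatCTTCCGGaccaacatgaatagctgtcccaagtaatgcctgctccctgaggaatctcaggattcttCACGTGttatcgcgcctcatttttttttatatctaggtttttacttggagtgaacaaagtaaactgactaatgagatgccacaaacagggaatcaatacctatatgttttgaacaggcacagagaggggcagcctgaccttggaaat
Atp5e: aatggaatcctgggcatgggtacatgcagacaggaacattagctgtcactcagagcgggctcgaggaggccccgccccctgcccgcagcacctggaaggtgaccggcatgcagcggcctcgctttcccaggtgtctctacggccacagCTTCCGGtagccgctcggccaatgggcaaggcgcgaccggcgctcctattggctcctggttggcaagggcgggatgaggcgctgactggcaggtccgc
Cox7b: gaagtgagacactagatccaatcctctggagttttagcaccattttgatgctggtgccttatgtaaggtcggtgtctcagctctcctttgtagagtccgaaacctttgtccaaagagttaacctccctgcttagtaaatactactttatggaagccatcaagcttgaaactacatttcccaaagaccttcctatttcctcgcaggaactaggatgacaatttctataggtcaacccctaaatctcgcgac
The motifs searched were the NRF1 motif, ETS (CCGGAAG), YY1 (AANATGGCG), the antioxidant response element and the E-box (CACGTG), and no base was shared between matches of different motifs. NRF1 matches were found upstream of 7 of the 42 genes (16.7%), against 3.74% of 32851 promoters of that length. The 42 genes had 46 entries, and a gene was counted where any of its entries held a match. The 32851 promoters were counted singly and were not limited to tested genes, so these shares are of unlike units. The 7 were Sdha, Sdhd, Cox6a1, Atp5c1, Atp5g2, Atp5h and Atp5k, of which 4 rose and 3 were not called. ETS matches were found for 13 (31.0%, against 6.91%), of which 8 rose and 5 were not called. YY1 matches were found for 2 (4.76%, against 1.12%), antioxidant response elements for 2 (4.76%, against 2.47%) and E-boxes for 4 (9.52%, against 6.02%). The 21 genes with none of the 5 motifs held 13 rises and 3 falls, and all 42 genes with an entry held 26 rises and 3 falls. A match is a description of letters, and its absence says only that these letters were not in the window.

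Complex II was represented by 4 subunits and 4 assembly factors, all tested. In it 4 genes rose (50%, beside 33.6% of all tested genes), 1 fell (12.5%, beside 34.1%) and 3 were not called (median 0.13). After removal of the trends 2 were higher and 1 lower, and by library size alone 2 were higher and 3 lower. Sdhb, the iron-sulfur subunit (ENSMUSG00000009863, chromosome 4, 140961203 to 140979193; positions here and below are of GENCODE genes on mm10), had 54.5, 56.2 and 58.1 CPM in the DMSO libraries and 74.9, 71.6 and 69.8 CPM in the baicalin libraries (log2 fold change 0.36, SE 0.05, edgeR adjusted p = 2.19e-08). Its 2 groups did not overlap. The membrane anchors Sdhc and Sdhd rose less: Sdhd had 75.2, 69.6 and 66.7 CPM in the DMSO libraries and 84.3, 81.9 and 76.9 CPM in the baicalin libraries (log2 fold change 0.20, SE 0.05, edgeR adjusted p = 0.000563), with groups that did not overlap. Sdhc had 98.6, 98.7 and 99.1 CPM in the DMSO libraries and 119, 99.7 and 106 CPM in the baicalin libraries (log2 fold change 0.13, SE 0.05, edgeR adjusted p = 0.0202), and baicalin library 1 stood well above the other two: without it the log2 fold change was 0.07 and the call was lost (edgeR adjusted p = 0.21). Sdha, the flavoprotein that oxidises succinate, had 196, 195 and 199 CPM in the DMSO libraries and 203, 199 and 196 CPM in the baicalin libraries, and its groups overlapped (log2 fold change 0.02, 95% interval -0.06 to 0.10, edgeR adjusted p = 0.705). With the trends removed none of the 4 subunits was called, and Sdhc (-0.0032) and Sdhd (-0.01) turned to just below 0.

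Among the assembly factors of complex II, Sdhaf1, which helps to put iron-sulfur clusters into Sdhb, had few reads. It had 37, 34 and 33 reads in the DMSO libraries against 64, 54 and 50 in baicalin. Of its 2490 exon bases 1733 overlap E130208F15Rik on the other strand, which had no read. How reads in this stretch were counted is not known, so the level of Sdhaf1 may be too low. In CPM that was 2.004, 1.94 and 1.81 CPM in the DMSO libraries and 3.85, 3.05 and 2.91 CPM in the baicalin libraries (log2 fold change 0.77, SE 0.23, edgeR adjusted p = 0.00354), with every baicalin library higher. Sdhaf4, which helps the flavinated Sdha on to Sdhb, had 14.4, 15.4 and 13.3 CPM in the DMSO libraries and 12.3, 11.6 and 11.9 CPM in the baicalin libraries and fell (log2 fold change -0.26, SE 0.10, edgeR adjusted p = 0.0233). The groups did not overlap, yet the call was lost when any of 4 libraries was left out: without DMSO library 2 the log2 fold change was -0.21 (edgeR adjusted p = 0.12), and adjusted p = 0.060, 0.080 and 0.063 without DMSO library 1, baicalin library 2 or baicalin library 3. Sdhaf2, the factor for flavin attachment, stood at 45.9 and 50.1 CPM in DMSO and baicalin, with groups that did not overlap, and was not called (log2 fold change 0.12, edgeR adjusted p = 0.0559). It was called as higher with the trends removed (0.42), without DMSO library 2 (0.16) or without baicalin library 2 (0.15). Its exons overlap those of Cpsf7 on the other strand, which had more reads. Sdhaf3 overlapped between the groups at 7.57 and 6.22 CPM (log2 fold change -0.28, edgeR adjusted p = 0.0822), and was 0.037 with the trends removed, while without DMSO library 3 it was called as lower (-0.38).

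Complex III had 9 genes, all tested. Of these 6 rose (66.7%, beside 33.6% of all tested genes), none fell (beside 34.1%) and 3 were not called (median 0.22). With the trends removed 4 were higher and 3 lower, and by library size alone 5 were higher and 1 lower. The largest rise was that of Uqcrq, which encodes a small subunit bound to cytochrome b (ENSMUSG00000044894, chromosome 11, 53427922 to 53430831). It had 78.2, 77.0 and 79.6 CPM in the DMSO libraries and 139.5, 139.6 and 135 CPM in the baicalin libraries, a 1.76-fold rise (log2 fold change 0.82, SE 0.05, edgeR adjusted p = 1.79e-22). The lowest baicalin library was far above the highest DMSO library, and the value with the trends removed was 0.60. Cyc1, cytochrome c1, the heme subunit that hands electrons to cytochrome c, had 93.4, 83.6 and 88.4 CPM in the DMSO libraries and 125, 123 and 121 CPM in the baicalin libraries (log2 fold change 0.48, SE 0.05, edgeR adjusted p = 4.05e-13). Uqcr11, a small membrane subunit, had 30.2, 31.1 and 32.8 CPM in the DMSO libraries and 41.6, 45.0 and 41.2 CPM in the baicalin libraries (log2 fold change 0.44, SE 0.07, edgeR adjusted p = 6.88e-08). In both genes every baicalin library was above every DMSO library. The core proteins Uqcrc2 and Uqcrc1 rose by 0.30 and 0.22 on the log2 scale, Uqcrc2 from 82.4 ± 3.67 to 101 ± 2.15 CPM and Uqcrc1 from 156 ± 3.29 to 182 ± 12.3 CPM (SD, n = 3 each). With the trends removed Uqcrc2 was still called (0.27) and Uqcrc1 was not (0.07).

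The smallest rise of complex III, that of the small subunit Uqcr10 (from 49.2 ± 0.596 to 54.1 ± 0.751 CPM; log2 fold change 0.13, edgeR adjusted p = 0.0281), turned to a called fall with the trends removed (-0.13, edgeR adjusted p = 0.030). It was also not called without DMSO library 3 (edgeR adjusted p = 0.061) or baicalin library 3 (adjusted p = 0.063). Uqcrfs1, the Rieske iron-sulfur protein, had 72.3, 70.9 and 68.1 CPM in the DMSO libraries and 73.2, 70.8 and 73.6 CPM in the baicalin libraries (log2 fold change 0.04, 95% interval -0.06 to 0.14). Uqcrh, the hinge protein, had 101, 91.7 and 101 CPM in the DMSO libraries and 93.7, 94.2 and 94.2 CPM in the baicalin libraries (log2 fold change -0.06, 95% interval -0.15 to 0.04), and Uqcrb, a small subunit on the matrix side, had a log2 fold change of 0.05 (95% interval -0.15 to 0.24). All 3 overlapped between the groups. With the trends removed Uqcrfs1 and Uqcrh were called as lower (-0.15 and -0.20).

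Cycs, the mobile carrier between complexes III and IV and a trigger of apoptosis when it leaves mitochondria (ENSMUSG00000063694, chromosome 6, 50562563 to 50566538), had the second largest rise of the 55. It had 32.0, 31.1 and 29.2 CPM in the DMSO libraries and 63.2, 58.1 and 57.0 CPM in the baicalin libraries, a 1.93-fold rise (log2 fold change 0.95, SE 0.06, edgeR adjusted p = 1.97e-19). The groups were far apart, and the difference was 1.12 with the trends removed and 0.82 by library size alone. The near-identical copy Gm10053 (99.9% over 946 bp) had 41, 38 and 37 reads in the DMSO libraries against 73, 96 and 84 in baicalin, and reads could be split between them. Cycs and its copy together had a log2 ratio of 0.97. Hccs, the enzyme that attaches heme to cytochrome c, rose from 30.7 ± 2.70 to 37.7 ± 6.197 CPM (n = 3 each, ± SD; log2 fold change 0.30, SE 0.11, edgeR adjusted p = 0.0339), with groups that overlapped. It was 0.65 with the trends removed, and it was not called by library size alone (0.17, edgeR adjusted p = 0.249), without DMSO library 1 (log2 fold change 0.31, edgeR adjusted p = 0.091) or DMSO library 3 (0.24, adjusted p = 0.093).

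**Figure D2:**
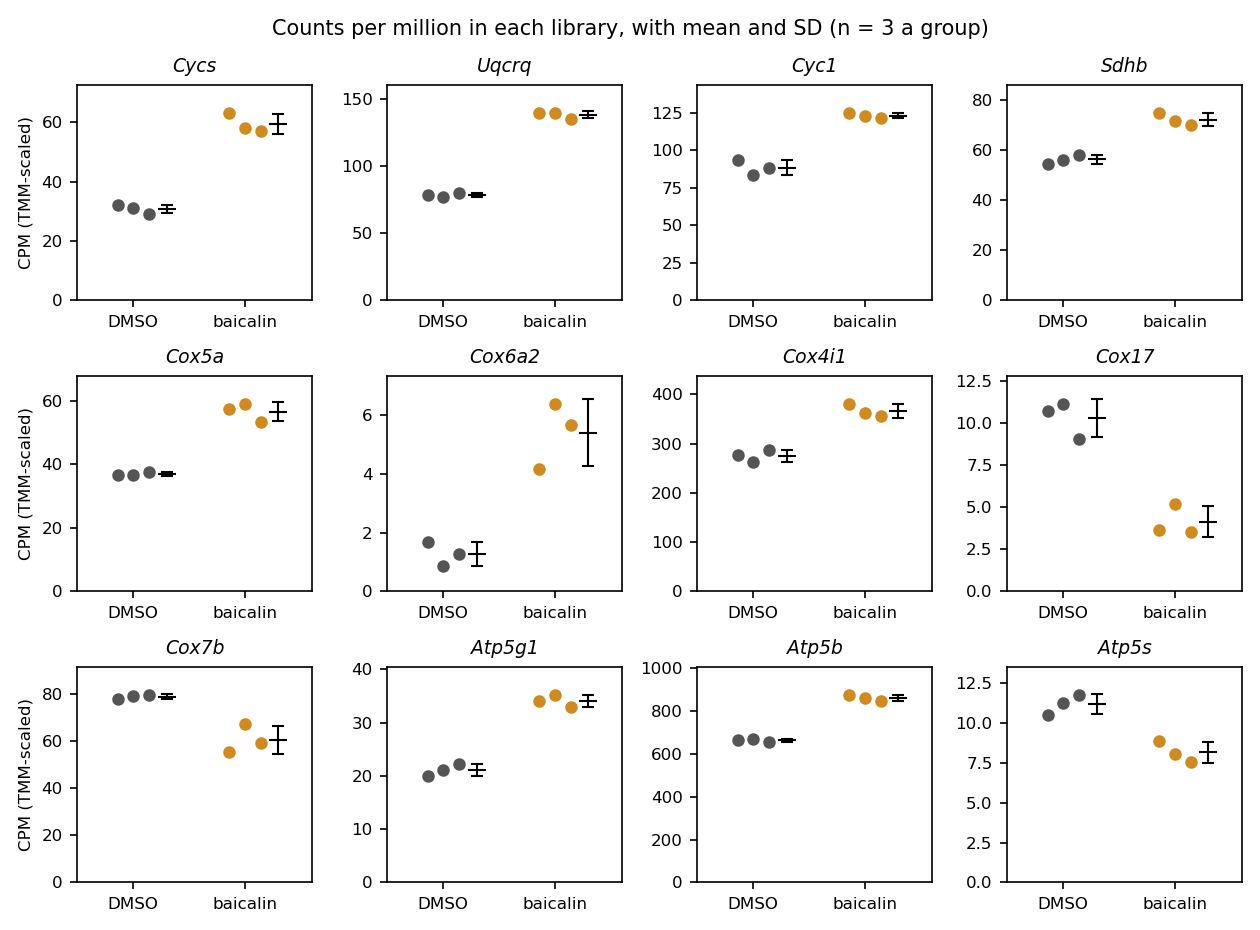
TMM-scaled CPM (y axis, from 0) of 12 genes in each of the 3 DMSO and 3 baicalin libraries, points being libraries and bars the mean and SD of a group. The groups do not overlap in any of the 12 genes, which were picked from the called ones: baicalin is higher in 9 and lower in Cox17, Cox7b and Atp5s.

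Complex IV had 29 genes, of which 20 were tested. Among the 20, 12 rose (60%, beside 33.6% of all tested genes), 2 fell (10%, beside 34.1%) and 6 were not called (median 0.24). After removal of the trends 9 were higher and 3 lower, and by library size alone 9 were higher and 6 lower. Among its 12 tested structural subunits and isoforms, 8 rose and 1 fell, beside 33.6% and 34.1% of all tested genes. Cox5a, a matrix-side subunit (ENSMUSG00000000088, chromosome 9, 57521274 to 57532426), had 36.5, 36.5 and 37.6 CPM in the DMSO libraries and 57.4, 59.0 and 53.1 CPM in the baicalin libraries (log2 fold change 0.62, SE 0.06, edgeR adjusted p = 3.55e-13). Its partner at the matrix face, Cox5b, had 40.2, 39.6 and 42.9 CPM in the DMSO libraries and 53.0, 59.4 and 52.4 CPM in the baicalin libraries (log2 fold change 0.43, SE 0.06, edgeR adjusted p = 1.95e-08). Cox4i1, the common form of the largest nuclear subunit, had 278, 263 and 287 CPM in the DMSO libraries and 381, 362 and 355 CPM in the baicalin libraries (log2 fold change 0.41, SE 0.04, edgeR adjusted p = 3.48e-13). The baicalin libraries were above the DMSO libraries in all 3 genes, and all 3 were called with the trends removed (0.69, 0.22 and 0.11). Cox6b1, on the intermembrane side, and Cox8a, a small membrane subunit, rose by 0.23 and 0.20 on the log2 scale, and stood just below 0 with the trends removed (-0.0053 and -0.08).

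Cox7b, a small subunit needed for assembly of the complex (ENSMUSG00000031231, chromosome X, 106015700 to 106022450), fell while most of its partners rose. It had 78.1, 79.2 and 79.9 CPM in the DMSO libraries and 55.4, 67.3 and 59.2 CPM in the baicalin libraries, that is 1.304-fold lower (log2 fold change -0.38, SE 0.05, edgeR adjusted p = 4.21e-08). Every baicalin library was below every DMSO library, and the fall was called in both other scalings (-0.35 and -0.51). Cox6c, a small membrane subunit, had 82.6, 82.0 and 79.8 CPM in the DMSO libraries and 79.5, 84.5 and 81.3 CPM in the baicalin libraries (log2 fold change 0.0051, 95% interval -0.09 to 0.10). Cox7c, another, had 92.5, 90.4 and 90.2 CPM in the DMSO libraries and 88.3, 86.7 and 90.9 CPM in the baicalin libraries (log2 fold change -0.04, 95% interval -0.13 to 0.06). Neither was called and both overlapped, but with the trends removed Cox7c was called as higher (0.19) and Cox6c stood at -0.05, whereas by library size alone both were called as lower (-0.17 and -0.12). The exons of Cox6c overlap those of Vps13b on the other strand, which had 6896 reads in the 6 libraries against 8628 for Cox6c.

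Several subunits of complex IV have isoforms that in textbooks mark a tissue. Cox6a2, the heart and muscle form of subunit 6a (ENSMUSG00000030785, chromosome 7, 128205435 to 128206387), had the largest rise of the 55. It had 31, 15 and 23 reads in the DMSO libraries against 69, 113 and 97 in baicalin, or 1.68, 0.858 and 1.26 CPM in the DMSO libraries and 4.15, 6.38 and 5.65 CPM in the baicalin libraries (log2 fold change 2.08, SE 0.24, edgeR adjusted p = 6.46e-11), a 4.23-fold rise. The groups did not overlap. The common form Cox6a1 had 189, 172 and 188 CPM in the DMSO libraries and 246, 259 and 241 CPM in the baicalin libraries (log2 fold change 0.44, SE 0.04, edgeR adjusted p = 1.33e-13), so that Cox6a2 took 0.703% ± 0.198 of their summed FPKM in the DMSO group and 2.19% ± 0.415 in the baicalin group (± SD over 3 libraries). The muscle genes Myog and Ckm had no read in any library, and Acta1 averaged 0.0917 CPM in DMSO and 0.0966 CPM in baicalin.

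In the Cox7a family, Cox7a2l, which is built into respiratory supercomplexes (ENSMUSG00000024248, chromosome 17, 83501918 to 83517330), had 140.3, 126 and 131 CPM in the DMSO libraries and 196, 185 and 185 CPM in the baicalin libraries (log2 fold change 0.51, SE 0.04, edgeR adjusted p = 3.76e-15). Cox7a2, the common form, had 41.5, 47.5 and 47.5 CPM in the DMSO libraries and 45.9, 40.6 and 44.8 CPM in the baicalin libraries, with groups that overlapped (log2 fold change -0.06, 95% interval -0.18 to 0.07), and it was called as lower with the trends removed (-0.32). On the FPKM scale Cox7a2l took 73.3%, 68.3% and 69.0% of the family in DMSO and 77.6%, 78.8% and 77.2% in baicalin. The share of Cox7a2 was 26.3%, 31.3% and 30.3% in DMSO and 22.1%, 21.1% and 22.7% in baicalin, and neither share overlapped between the groups. The copy Gm6969 matches Cox7a2l over 201 bp and held 9277 reads in the 6 libraries, beside 16881 for Cox7a2l. Both together, with all reads of Gm6969 counted and not only those of the 201 bp, had a log2 ratio of 0.46.

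Isoforms of other tissues were at the edge of detection and were not tested. Cox7a1, the heart and brown fat form, had 0.379, 0.343 and 0.658 CPM in the DMSO libraries and 0.301, 0.169 and 0.0582 CPM in the baicalin libraries. Cox8b, another brown fat and muscle form, had reads in DMSO library 2 alone (0.172 CPM). Cox4i2, a form known from lung, took 0.191%, 0.0428% and 0% of the FPKM of the Cox4 pair in DMSO and 0.0621%, 0.0307% and 0.0645% in baicalin. The testis forms Cox6b2, Cox7b2 and Cox8c, the gene Cox20b and a second row named Atp5o had no read in any library, a level of at most 0.179 CPM in each. Cox6c2 averaged 0.128 CPM in DMSO and 0.0771 CPM in baicalin.

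**Figure D3:**
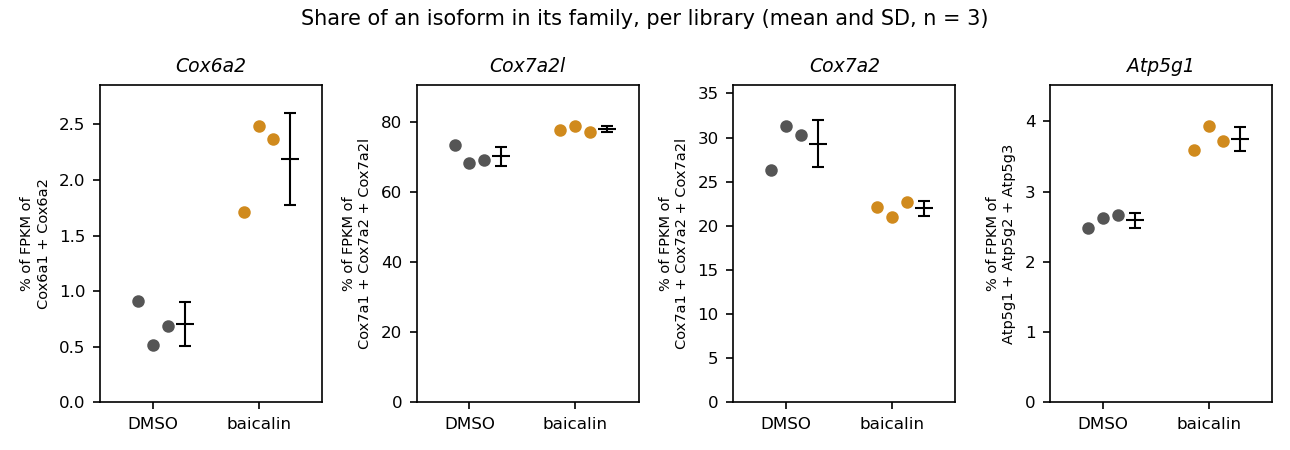
Share (y axis, percent, from 0) of 4 isoforms in the summed deposited FPKM of their families, points being the 3 libraries of each group and bars the mean and SD. Cox6a2, Cox7a2l and Atp5g1 have larger shares in every baicalin library and Cox7a2 has a smaller one, with no overlap between the groups.

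The assembly factors of complex IV changed in both directions. Of 8 tested, 4 rose and 1 fell, beside 33.6% and 34.1% of all tested genes, and 3 were not called (median 0.21). After removal of the trends 2 were higher and 1 lower (median 0.06), and by library size alone 3 were higher and 2 lower. Cox17, the copper chaperone that delivers copper to the complex by way of Sco1 and Cox11 (ENSMUSG00000046516, chromosome 16, 38346991 to 38352763), had 198, 195 and 165 reads in the DMSO libraries against 61, 92 and 61 in baicalin. In CPM that was 10.7, 11.2 and 9.04 CPM in the DMSO libraries and 3.67, 5.20 and 3.55 CPM in the baicalin libraries, a 2.48-fold fall (log2 fold change -1.31, SE 0.15, edgeR adjusted p = 5.66e-11). It was the largest fall of the 55, with groups far apart, and was -1.22 with the trends removed. The copper factor Cox11 had 2.76, 2.92 and 3.62 CPM in the DMSO libraries and 4.93, 4.58 and 4.66 CPM in the baicalin libraries (log2 fold change 0.61, SE 0.19, edgeR adjusted p = 0.0041), but its exons overlap those of Tom1l1 on the other strand, which had more reads. With the trends removed Cox11 was not called (0.39, edgeR adjusted p = 0.0669). Sco1, which takes copper from Cox17, was not called (log2 fold change 0.17, edgeR adjusted p = 0.107), but was called as higher with the trends removed (0.32).

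Cox18, which inserts part of subunit 2 into the membrane (ENSMUSG00000035505, chromosome 5, 90214724 to 90224001), had 13.001, 13.5 and 12.99 CPM in the DMSO libraries and 22.5, 19.8 and 20.4 CPM in the baicalin libraries (log2 fold change 0.67, SE 0.09, edgeR adjusted p = 1.13e-08). Cox10, the heme O synthase that starts heme A synthesis, had 12.6, 13.8 and 14.4 CPM in the DMSO libraries and 17.6, 18.3 and 19.2 CPM in the baicalin libraries (log2 fold change 0.43, SE 0.10, edgeR adjusted p = 9.22e-05). In both the groups did not overlap, but with the trends removed Cox10 was not called (0.19, edgeR adjusted p = 0.0759), while Cox18 was (0.43). Cox15, the next enzyme of heme A synthesis, had 38.5, 39.5 and 38.6 CPM in the DMSO libraries and 35.1, 34.9 and 36.1 CPM in the baicalin libraries, and its baicalin libraries were all below DMSO, but it was not called (log2 fold change -0.14, edgeR adjusted p = 0.0584), whereas by library size alone it was called as lower (-0.26). Cox14, needed for the making of subunit 1, rose from 70.0 ± 2.89 to 79.2 ± 4.85 CPM (n = 3 each, ± SD; log2 fold change 0.18, edgeR adjusted p = 0.00202) and stood at -0.11, not called, with the trends removed. Cox19, of the copper pathway (log2 fold change 0.09), and Cox16, which assists subunit 2 (0.25), were not called, whereas with the trends removed Cox19 was at -0.058 and Cox16 was called as higher (0.58). Cox20, at 0.240 and 0.349 CPM, was not tested, and its exons overlap those of the abundant gene Hnrnpu.

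Complex V had 18 rows, of which 17 were tested. Of these 11 rose (64.7%, beside 33.6% of all tested genes), 2 fell (11.8%, beside 34.1%) and 4 were not called (median 0.19). With the trends removed 7 were higher and 5 lower (median -0.00049), and by library size alone 7 were higher and 3 lower. In the F1 head, 4 of 5 genes rose (33.6% of all tested genes), and 2 were higher after removal of the trends and 3 by library size alone. Atp5b, the catalytic beta subunit (ENSMUSG00000025393, chromosome 10, 128083273 to 128090391), had 664, 668 and 654 CPM in the DMSO libraries and 876, 859 and 844 CPM in the baicalin libraries (log2 fold change 0.38, SE 0.04, edgeR adjusted p = 2.88e-13). Atp5d, the delta subunit of the central stalk, had 151, 146 and 147 CPM in the DMSO libraries and 218, 199 and 197 CPM in the baicalin libraries (log2 fold change 0.47, SE 0.04, edgeR adjusted p = 3.32e-14). Every baicalin library was above DMSO in both, and both were called with the trends removed (0.25 and 0.18). Atp5a1, the alpha subunit, and Atp5c1, the gamma subunit, rose by 0.23 and 0.21 on the log2 scale, and stood at -0.00049 and -0.0069 with the trends removed. Atp5e, the epsilon subunit, had 17.1, 17.2 and 16.1 CPM in the DMSO libraries and 22.6, 17.01 and 17.9 CPM in the baicalin libraries, and was not called (log2 fold change 0.19, edgeR adjusted p = 0.0731). Baicalin library 1 was well above the rest, and the gene was called as higher without baicalin library 2 (0.29) or 3 (0.25), and stood at -0.024 with the trends removed.

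The c subunit of the proton-carrying ring is made from several genes that encode the same mature protein. Atp5g1 (ENSMUSG00000006057, chromosome 11, 96068852 to 96075670) had 19.99, 21.05 and 22.3 CPM in the DMSO libraries and 34.1, 35.3 and 32.9 CPM in the baicalin libraries, a 1.61-fold rise (log2 fold change 0.69, SE 0.08, edgeR adjusted p = 1.29e-11). Atp5g3 had 167, 164 and 168 CPM in the DMSO libraries and 191, 189 and 188 CPM in the baicalin libraries (log2 fold change 0.19, SE 0.04, edgeR adjusted p = 3.86e-05), and Atp5g2 had 141, 141 and 149 CPM in the DMSO libraries and 165, 149 and 146 CPM in the baicalin libraries (log2 fold change 0.10, edgeR adjusted p = 0.0529). Groups were apart for Atp5g1 and Atp5g3 and overlapped for Atp5g2. With the trends removed Atp5g1 was 0.72, Atp5g3 was no longer called (0.0027) and Atp5g2 was called as lower (-0.16). Without DMSO library 3, baicalin library 2 or baicalin library 3, Atp5g2 was called as higher (0.13, 0.13 and 0.14), as it was with the replicate number as a block (edgeR adjusted p = 0.039). Atp5g1 remained the minor gene of the trio, with 2.59% ± 0.1004 of their FPKM in the DMSO group and 3.75% ± 0.174 in the baicalin group (± SD over 3 libraries). The copy Gm10039, 99.8% identical over 411 bp, had 3062 reads in the 6 libraries against 2899 for Atp5g1 (log2 fold change 0.52), and both together had a log2 ratio of 0.60.

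The peripheral stalk, which holds the head still against the rotor, rose in all 4 tested genes (33.6% of all tested genes rose). Of the 4, 3 were called as higher after removal of the trends and 2 by library size alone. Atp5h, the d subunit (ENSMUSG00000034566, chromosome 11, 115415689 to 115419962) had 85.8, 70.1 and 76.2 CPM in the DMSO libraries and 105, 99.5 and 94.8 CPM in the baicalin libraries (log2 fold change 0.36, SE 0.06, edgeR adjusted p = 1.99e-06), and every baicalin library was higher. Atp5o, the protein that ties the stalk to the head, went from 54.0 ± 2.17 to 64.7 ± 2.40 CPM, and Atp5f1, the b subunit, from 186 ± 4.99 to 212 ± 6.84 CPM (SD, n = 3 each). The log2 fold change was 0.26 for Atp5o, 0.19 for Atp5f1 and 0.15 for Atp5j, coupling factor 6. Atp5f1 was 0.62 with the trends removed, and by library size alone it was not called (0.066, edgeR adjusted p = 0.125). Atp5j was at -0.03 with the trends removed and not called, and its exons overlap those of Gabpa on the other strand, which fell. Among the small membrane subunits, Atp5l, the g subunit (ENSMUSG00000038717, chromosome 9, 44912557 to 44920742), rose with 58.0, 64.6 and 60.9 CPM in the DMSO libraries and 86.8, 78.6 and 73.4 CPM in the baicalin libraries (log2 fold change 0.38, SE 0.06, edgeR adjusted p = 7.94e-08). Its annotated exons are 11.8 times as long as its principal transcript, and removal of the length trend used all of them (log2 fold change 0.77). A stretch of Senp6, which fell (log2 fold change -0.42), is 96.7% identical to Atp5l over 245 bp. Atp5l and Senp6 counted together had a log2 ratio of 0.053, against 0.38 for Atp5l alone. All reads of Senp6 entered that sum, not only those of the 245 bp. It therefore does not show how far shared reads bear on Atp5l. Copies with reads also existed for Uqcrb, Cox5b, Atp5h and Atp5o. With all reads of their copies added, these genes had log2 ratios of 0.033, 0.43, 0.35 and 0.32. Atp5k, the e subunit (log2 fold change 0.10), and Atp5mpl, a small proteolipid (-0.03), were not called, and both were called as lower with the trends removed (-0.19 and -0.31).

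The falls of complex V were Atp5j2 and Atp5s. Atp5j2, the f subunit (ENSMUSG00000038690, chromosome 5, 145183698 to 145192062), had 80.0, 79.4 and 80.2 CPM in the DMSO libraries and 69.6, 72.9 and 78.4 CPM in the baicalin libraries (log2 fold change -0.12, SE 0.05, edgeR adjusted p = 0.035). The groups did not overlap, but the DMSO and baicalin libraries nearest each other were close, and the call was lost when any library but baicalin library 3 was left out (log2 fold changes from -0.12 to -0.066, the last without baicalin library 1). Atp5s, the coupling factor B (ENSMUSG00000054894, chromosome 12, 69724950 to 69744660), had 10.5, 11.3 and 11.8 CPM in the DMSO libraries and 8.85, 8.08 and 7.57 CPM in the baicalin libraries (log2 fold change -0.45, SE 0.12, edgeR adjusted p = 0.000816), with groups apart. It was called in both other scalings (-0.31 and -0.58). Atpif1, the inhibitor that binds ATP synthase when it runs backward, rose from 25.8 ± 0.917 to 33.4 ± 4.43 CPM (log2 fold change 0.37, SE 0.08, edgeR adjusted p = 5.52e-05), and was not called with the trends removed (0.083, edgeR adjusted p = 0.355).

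Summed over the tested genes of a complex, the ratio of baicalin to DMSO was lowest for complex II and highest for cytochrome c, and differences between complexes were not tested. The sum for complex II was 492, 493 and 491 CPM in DMSO and 554, 523 and 520 CPM in baicalin, a ratio of 1.08, and by library size alone the ratio was 0.990. The sum for complex III was 699.7, 671 and 683 CPM in DMSO and 857, 838 and 823 CPM in baicalin (ratio 1.23). For complex IV it was 1418, 1378 and 1433 CPM against 1690.4, 1720.1 and 1674 CPM (1.202), and for complex V 2451, 2440.4 and 2424 CPM against 3014, 2906 and 2884 CPM (1.203). By library size alone these ratios were 1.12, 1.10 and 1.10, and that of cytochrome c was 1.77 in place of 1.93. The groups did not overlap in any of the 5 sums with TMM scaling, and the exact two-sided permutation test gave p = 0.1 for each, the smallest p that 20 arrangements of 3 against 3 allow. Baicalin library 1 held the highest value in 20 of the 34 genes that rose. It also had the lowest TMM factor of the 6 libraries (0.945). The same count was not made over all tested genes, so it is not shown to be particular to these genes.

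**Figure D4:**
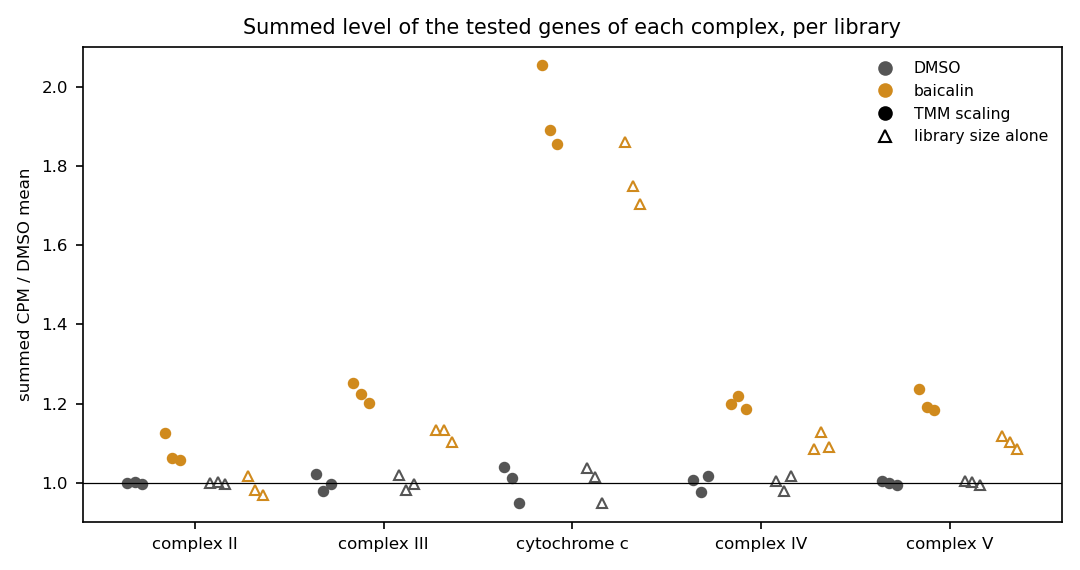
Summed CPM of the tested genes of each complex in every library (y axis, as a ratio to the DMSO mean; it starts at 0.9), filled circles for TMM scaling and open triangles for library size alone. With TMM scaling all baicalin libraries lie above 1 and above DMSO, cytochrome c most, while complex II by library size alone mixes with DMSO (ratio 0.990).

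Levels of different genes are comparable only per length, here as deposited FPKM in DMSO. The highest were Cox8a (352 ± 6.08), Cox6a1 (263 ± 13.6), Cox4i1 (179 ± 7.82), Atp5a1 (175 ± 2.31) and Atp5b (157 ± 1.98; SD, n = 3 each), and Cox4i1 and Atp5a1 did not differ beyond their spread. The same 5 genes led in baicalin, at 409 ± 20.2, 360.3 ± 12.3, 240.4 ± 10.02, 208 ± 5.84 and 207 ± 4.61 FPKM. The lowest tested gene was Sdhaf1, at 0.777 ± 0.0422 FPKM in DMSO, though the overlap given above may lower its count. Cycs, at 9.10 ± 0.445 FPKM in DMSO and 17.8 ± 1.07 in baicalin, was lower than Cyc1 (41.4 ± 2.38 and 58.2 ± 1.13). FPKM divides by the length of all annotated exons, which for Atp5l (11.8 times), Cox6c (4.83 times) and Atp5e (4.17 times) far exceeds the principal transcript. Per kilobase of principal transcript Atp5l stood at 112 CPM per kb in DMSO, against 9.57 FPKM, and the leading genes were Cox4i1 (360.4), Cox8a (346), Atp5b (346) and Cox6a1 (321).

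The other genes of the chain were read from the same fit. Of 37 tested subunits of complex I, the NADH dehydrogenase, 24 rose (64.9%, beside 33.6% of all tested genes) and 1 fell (2.70%, beside 34.1%). Their median was 0.28, and 14 were higher and 4 lower once the trends were removed. By library size alone 19 were higher and 2 lower. The largest rise was Ndufv3 (from 110.4 ± 2.63 to 158 ± 4.18 CPM; log2 fold change 0.52, SE 0.04, edgeR adjusted p = 1.24e-15), and the fall was Ndufa6 (from 69.0 ± 3.11 to 59.7 ± 1.93 CPM; log2 fold change -0.21, SE 0.05, edgeR adjusted p = 0.000357). Complexes III, IV and V take subunits from mitochondrial DNA, of which 5 were tested. None of these rose and 2 fell, beside 33.6% and 34.1% of all tested genes. Their median was -0.16, but 0.21 with the trends removed, when 2 were higher and 2 lower. Mt-Co1, the catalytic core of complex IV, fell from 7981 ± 463 to 6555 ± 284 CPM (log2 fold change -0.28, SE 0.04, edgeR adjusted p = 5.1e-08), and mt-Cytb, cytochrome b of complex III, from 1341 ± 175 to 936 ± 33.5 CPM (log2 fold change -0.52, SE 0.11, edgeR adjusted p = 0.0123). Without baicalin library 1 mt-Cytb was -0.48 and not called (edgeR adjusted p = 0.057). The log2 fold changes of mt-Co2, mt-Co3 and mt-Atp6 were 0.01, 0.20 and -0.16, none called, at 8.02 to 16.6 CPM. Mt-Co1 and mt-Cytb stood far higher in the same poly-A selected libraries, and the cause of this gap was not tested. Near-identical copies were not searched for these genes, so their counts may not give the levels of the transcripts. With the trends removed mt-Co2 and mt-Co3 were called as higher (0.23 and 0.40), mt-Co3 was also called as higher without baicalin library 2 (0.32), and mt-Atp6, at 0.21 with the trends removed, was called as lower without DMSO library 3 (-0.32). By library size alone mt-Co2 was at -0.11.

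The partner subunits and assembly factors outside the name rule held 30 tested genes. Of these 12 rose (40.0%, beside 33.6% of all tested genes) and 4 fell (13.3%, beside 34.1%), with a median of 0.18. With the trends removed 9 were higher and 7 lower (median 0.02), and by library size alone 7 were higher and 11 lower. Higd1a, a hypoxia-induced factor that binds complex IV, had 43.6, 43.8 and 46.1 CPM in the DMSO libraries and 116, 131 and 122 CPM in the baicalin libraries, the largest rise of the list (log2 fold change 1.47, SE 0.05, edgeR adjusted p = 6.08e-31). Ndufa4, a subunit of complex IV despite its name, stood at 92.9 and 99.4 CPM and was not called (log2 fold change 0.10, edgeR adjusted p = 0.0613). It was called as higher with the trends removed (0.22), stood at -0.029 by library size alone, and was called as higher without DMSO library 2 (0.14), baicalin library 1 (0.11) or baicalin library 3 (0.13). Slirp, which stabilises mitochondrial mRNA with Lrpprc, had the largest fall, from 1.12 ± 0.468 to 0.540 ± 0.187 CPM (log2 fold change -1.04, SE 0.41, edgeR adjusted p = 0.0215). At this low level it lost the call without DMSO library 3 (-0.66, adjusted p = 0.23), baicalin library 1 (adjusted p = 0.098) or baicalin library 3 (adjusted p = 0.062).

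Of 12 tested regulators of respiratory genes, 3 rose (25.0%, beside 33.6% of all tested genes) and 5 fell (41.7%, beside 34.1%), with a median of -0.04, and with the trends removed 5 were higher and 3 lower (median 0.13). Ppargc1a, the PGC-1alpha coactivator of mitochondrial biogenesis, had 8.83, 8.18 and 8.16 CPM in the DMSO libraries and 3.55, 2.37 and 2.91 CPM in the baicalin libraries and fell 2.85-fold (log2 fold change -1.51, SE 0.17, edgeR adjusted p = 1.59e-11). Ppargc1b, its close relative, had 5.20, 6.41 and 5.26 CPM in the DMSO libraries and 3.43, 3.11 and 3.73 CPM in the baicalin libraries (log2 fold change -0.71, SE 0.18, edgeR adjusted p = 0.000363). The third of the family, Pprc1, rose with 57.1, 61.0 and 58.8 CPM in the DMSO libraries and 80.0, 74.0 and 78.9 CPM in the baicalin libraries (log2 fold change 0.40, SE 0.05, edgeR adjusted p = 1.46e-09). Groups were apart in all 3 genes. Esrra, the orphan receptor that binds respiratory gene promoters, rose from 42.1 ± 1.53 to 57.9 ± 2.62 CPM (log2 fold change 0.46, SE 0.06, edgeR adjusted p = 7.77e-10), and Tfam, the packaging factor of mitochondrial DNA, from 29.1 ± 2.53 to 34.8 ± 0.195 CPM (log2 fold change 0.26, edgeR adjusted p = 0.00144). By library size alone Tfam was 0.13 and not called (edgeR adjusted p = 0.109). Nrf1, whose motif the promoters above were searched for, was not called (log2 fold change 0.08, edgeR adjusted p = 0.345), but was called as higher with the trends removed (0.38) and stood at -0.048 by library size alone. Yy1 fell by 0.18 on the log2 scale. Of the GABP genes, Gabpa (-0.21) and Gabpb2 (-0.33) fell and Gabpb1 was not called (-0.04), but all 3 were above 0 and not called with the trends removed (0.06, 0.09 and 0.16). Tfb1m (0.27) and Tfb2m (-0.04) were not called, Tfb1m was called as higher with the trends removed (0.36), and Esrrb and Esrrg were too low to test.

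**Figure D5:**
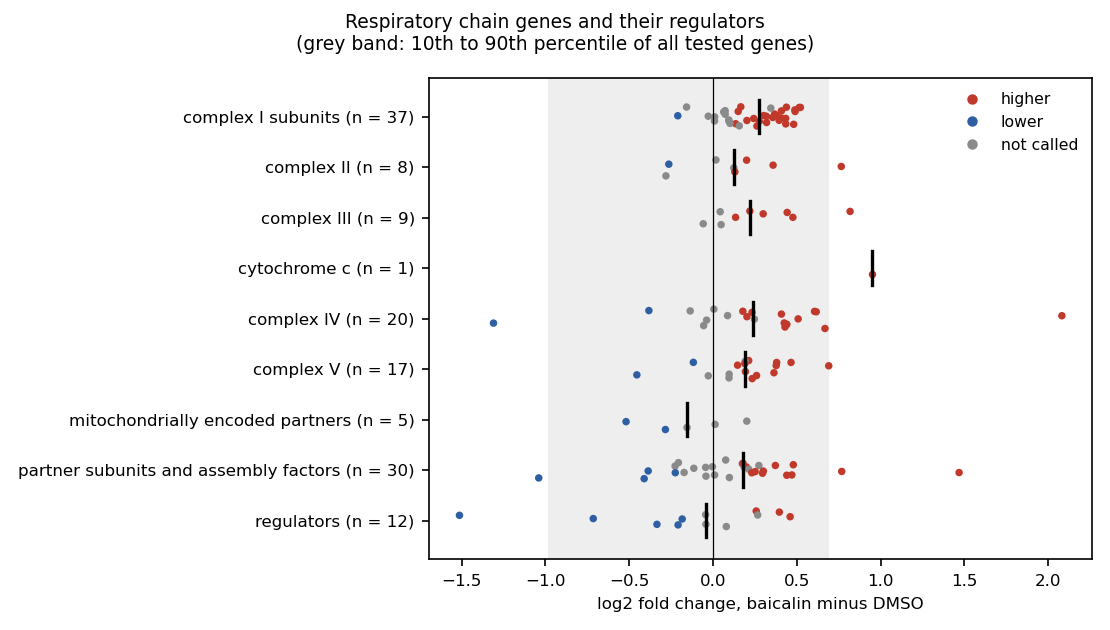
Log2 fold change (x axis, baicalin minus DMSO) of the tested genes of each complex and of the other lists, one point a gene coloured by call, black bars being medians and the grey band the 10th to 90th percentile of all 13728 tested genes (-0.98 to 0.69). Complexes I to V have medians right of 0 and nearly all their points within the band, the mitochondrially encoded partners have a median left of 0 (right of it, at 0.21, with the trends removed, and that of complex V is then -0.00049), and Ppargc1a and Cox6a2 are the outermost points.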

How the data were processed

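Poly-A RNA was selected with beads from 3 µg of total RNA and built into libraries with the NEBNext Ultra kit, as the labels' protocols say. The authors deposited a table of whole-number counts per gene, made with featureCounts 1.5.0-p3 on mm10 per the submitters' processing notes, and FPKM values of the same libraries, which the file's values place per annotated exon length. No source used here gives the aligner, the annotation release or the strandedness of counting, so reads of overlapping genes on opposite strands cannot be told apart. Exon lengths, GC content, positions and types came from GENCODE M21 (mm10 coordinates), which holds 54409 of the 54532 IDs. Counts were tested with edgeR 4.0.16 (limma 3.58.1, R 4.3.3): TMM factors, filterByExpr, robust quasi-likelihood test with treatment as the only term, Benjamini-Hochberg adjustment over 13728 genes. DESeq2 1.42.0 was an alternative. Trends with exon length and GC content were lowess curves fitted in each library and entered as offsets. Sums were compared with exact permutation tests, and copies were found with blastn 2.17.0. Figures and tables used Python 3.11.15, pandas 2.3.3, numpy 2.4.6, scipy 1.17.1 and matplotlib 3.10.9.

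Depth was 16730594 to 18326874 counts per library, all assigned to genes, and the biological coefficient of variation was 4.61%. Between replicates, chi-square per degree of freedom was 2.83 to 4.35, so no pair was 1 library deposited more than once. On simulated data drawn from these libraries (13495 genes) the test called 98.0% of genes changed 4-fold, 76.6% of those changed 2-fold, and made 8 false calls. Only 47 to 52 genes were changed there at each fold, whereas 67.7% of the genes were called in the data. The simulated rates therefore do not carry over to these data. Values in every library are given for the 3 called genes with the largest change in each complex (mean of at least 5 CPM), called genes past 1.5-fold, falls and isoform pairs. Outside the complexes, Ndufa4, Atpif1, Hccs, Higd1a, the mitochondrially encoded partners, the regulators and the called gene with the largest change in each direction of a list were named. Some others (Sco1, genes whose call depends on 1 library, markers) were named after their values were seen. The members and lists were chosen with earlier results of these data known, so their counts are descriptions.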

Additional observations from a re-analysis of the deposited data

How the results depend on the processing

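The calls over all genes, over the members, in each complex and in the complex I, mitochondrially encoded, partner and regulator lists, and each gene named from these with a test (Sco1 apart), were recomputed under 18 alternatives; the counts by subunit role, motif, marker and overlap were not run under all of them. The alternatives were DESeq2, limma-voom, RLE factors, scaling by library size alone, no count filter, a minimum of 1 CPM in every library of 1 group, a replicate block, length and GC trends removed, both of these together, 3 limma-trend fits on FPKM, and each library left out in turn. Of the 39 called members 22 kept direction and call in all 18. The number of members called lower was 5, and it was 3 with DESeq2 and with no count filter, 13 by library size alone, 12 with the trends removed and 3 to 5 with a library left out (3 without DMSO library 1, DMSO library 2 or baicalin library 2). Complex II had 5 called genes, 3 with DESeq2 and 3 with the trends removed, and the mitochondrially encoded partners had 2, 4 with the trends removed and 1 to 3 with a library left out. The ratios of summed levels by library size alone were 0.990 for complex II, 1.12 for complex III, 1.77 for cytochrome c, 1.10 for complex IV and 1.10 for complex V, and that of complex IV was 1.22 on FPKM. The cause of these shifts was not tested. Gene values that changed sign were as follows. With length and GC trends removed they were Sdhaf3 0.037, Sdha -0.048, Sdhc -0.0032, Sdhd -0.010, Uqcr10 -0.13, Uqcrfs1 -0.15, Cox14 -0.11, Cox19 -0.058, Cox6b1 -0.0053, Cox6c -0.050, Cox7c 0.19, Cox8a -0.077, Atp5a1 -0.00049, Atp5c1 -0.0069, Atp5e -0.024, Atp5g2 -0.16, Atp5k -0.19, Atp5j -0.032, mt-Atp6 0.21, Gabpa 0.059, Gabpb1 0.16, Gabpb2 0.095, Tfb2m 0.0054. By library size alone they were Sdhaf2 -0.0031, Sdha -0.11, Uqcrb -0.079, Uqcrfs1 -0.084, Cox19 -0.040, Cox6c -0.12, Atp5g2 -0.031, Atp5k -0.032, Ndufa4 -0.029, mt-Co2 -0.11, Nrf1 -0.048. With no count filter they were Cox7c 0.00033, Atp5mpl 0.011, and with the minimum of 1 CPM Cox6c -0.0074. With each library left out in turn, the genes that crossed 0 ranged as follows: Uqcrb -0.055 to 0.15, Cox6c -0.0056 to 0.037, Cox7a2 -0.11 to 0.010, Atp5mpl -0.045 to 0.0083, mt-Co2 -0.072 to 0.17, Gabpb1 -0.11 to 0.037, Tfb2m -0.12 to 0.025. Small changes were called in these data, such as that of Sdhc (1.09-fold). In simulated counts the test called 36.5% of genes changed 1.2-fold and 64.7% of those changed 1.5-fold. Few genes were changed there, which makes the adjusted cut-off stricter, so these rates do not give the power on these data.

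Replicate numbers did not pair the samples: same-numbered DMSO and baicalin libraries had deviations correlated at 0.03, 0.04 and -0.0024, and not every one correlated best with its own number. With the replicate number as a block 40 members were called, 35 higher and 5 lower, and among the members the call of Atp5g2 alone changed (edgeR adjusted p = 0.039). With the block and the trends removed together 14 members were lower, 3 complex II genes and 4 mitochondrially encoded partners were called, and the values that changed sign were Sdhaf3 0.038, Sdha -0.048, Sdhc -0.0052, Sdhd -0.0097, Uqcr10 -0.13, Uqcrfs1 -0.15, Cox14 -0.11, Cox19 -0.061, Cox6b1 -0.0061, Cox6c -0.050, Cox7c 0.19, Cox8a -0.079, Atp5a1 -0.00046, Atp5c1 -0.0058, Atp5e -0.027, Atp5g2 -0.16, Atp5k -0.19, Atp5j -0.033, mt-Atp6 0.21, Gabpa 0.060, Gabpb1 0.16, Gabpb2 0.095, Tfb2m 0.0071.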
